A study of Mus musculus with 10 samples.

Results

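Natural killer (NK) cells and cytotoxic T cells are read here through 10 genes chosen by symbol: the receptors Ncr1, Klrk1 and Klrd1, the transcription factors Eomes and Tbx21, the granule genes Gzma, Gzmb, Prf1 and Nkg7, and the chemokine Ccl5. All 10 were found in the deposited count table of 21877 gene symbols, and all 10 passed the filter on low counts that left 15385 genes for testing. RNA had been sequenced from the peritoneum of male C57BL/6 mice (C57BL/6J in the series title) that were given intraperitoneal injections for 6 weeks. The 4 groups were Mr1-/- given 4.25% peritoneal dialysis (PD) fluid (2 libraries), Mr1-/- given PBS (2), Mr1+/+ given 4.25% PD fluid (3) and Mr1+/+ given PBS (3). Mr1 encodes the MHC class I-like molecule that mucosal-associated invariant T (MAIT) cells recognise, and PD fluid is a glucose-rich dialysis solution. The design asks what PD fluid does in each genotype, and what Mr1 loss does under each fluid. The sources used here give no age, do not describe the Mr1 allele, and name no animal for any library. The p-values therefore weigh the spread among these samples alone, part or all of which could be technical.

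NK cells and cytotoxic T cells kill infected, stressed or transformed cells by releasing granules. Perforin opens a path into the target cell, and granzymes, which are serine proteases, then trigger its death. The T-box factors T-bet and Eomes direct the expression of this machinery, IL-15 keeps the cells alive, and NK cells are resident in serous cavities and fat as well as in blood.

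Libraries held 14145635 to 16335799 counts. Replicates 1 and 2 of Mr1+/+ PBS, and replicates 1 and 2 of Mr1-/- PD fluid, differed far less than any other pair within a group (chi-square per gene 2.23 and 1.74, against 18.6 to 118 for the other 6 pairs), so each pair was counted as 1 sample. That left 1 sample of Mr1-/- PD fluid, 2 of Mr1-/- PBS, 3 of Mr1+/+ PD fluid and 2 of Mr1+/+ PBS. Tests with the single Mr1-/- PD fluid sample take its variation to be that of the other groups. Mr1 was at 1.96 to 2.45 CPM (counts relative to library size) in the 4 Mr1-/- libraries and at 20.3 to 32.5 CPM in the 6 Mr1+/+ libraries. Mr1+/+ PBS replicate 3 stood apart: 10 intestinal epithelial markers summed to 2322 CPM there, against 24.4 to 35.8 CPM in the other 9 libraries, and 8 pancreatic acinar markers to 24473 CPM, against 129 to 4948 CPM. The mesothelial marker Msln was present in every library, at 8.39 to 51.9 CPM.

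The cytotoxic genes were expressed at low to moderate levels in every library, and none of the 10 passed the test in any comparison. Scaled per kb of exon, so that genes can be set side by side, Ccl5 was highest in each group, with a mean of 38.5 CPM per kb in Mr1-/- PD fluid, 61 in Mr1-/- PBS, 47.3 in Mr1+/+ PD fluid and 61.2 in Mr1+/+ PBS. Nkg7 was next in each group, at group means of 22.5 to 31.2 CPM per kb. Klrk1, Eomes, Ncr1, Gzmb and Gzma had group means between 1.66 and 6.72 CPM per kb. These ranks rest on the annotated exon lengths, 7183 bases for Klrk1 and 1281 for Klrd1. In Mr1-/- PD fluid, 18.1 CPM of Klrk1 became 2.52 CPM per kb and 18.5 CPM of Klrd1 became 14.5. In whole tissue, fewer cytotoxic cells and less of a transcript per cell cannot be told apart.

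**Figure D1:**
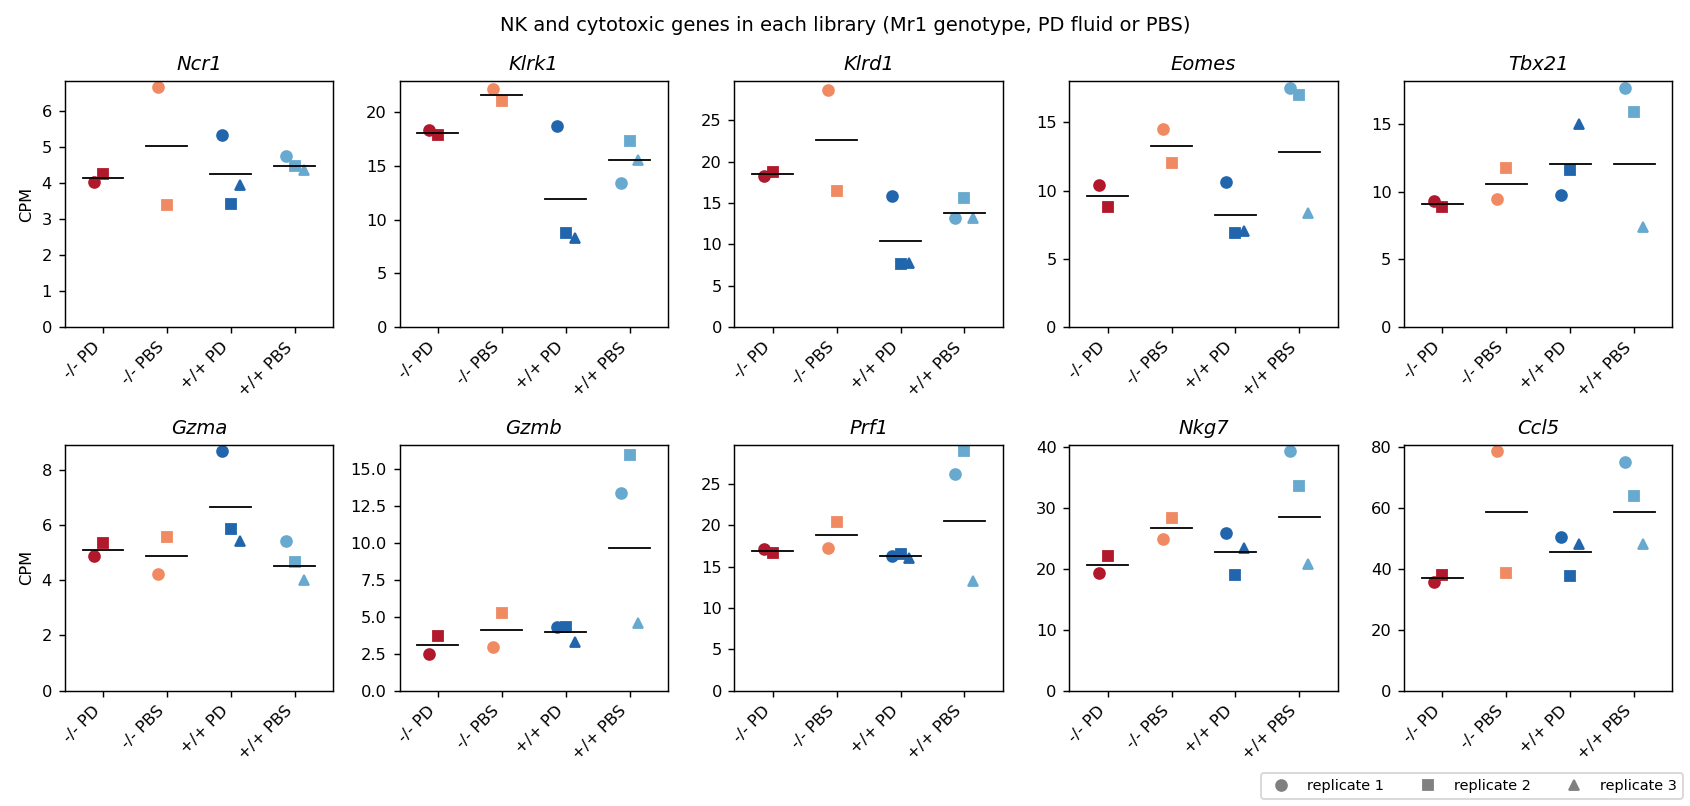
CPM of each of the 10 genes (y axis, linear, from 0) in the 10 libraries, by group (x axis); circles, squares and triangles are replicates 1, 2 and 3, and the line is the mean over samples after near-identical libraries were merged. Gzmb is at 13.4 and 16 CPM in Mr1+/+ PBS replicates 1 and 2 and at 2.48 to 5.28 CPM in the other 8 libraries. Replicate 3 of Mr1+/+ PBS lies below replicates 1 and 2 for Ncr1, Eomes, Tbx21, Gzma, Gzmb, Prf1, Nkg7 and Ccl5.

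Ncr1 encodes NKp46, the receptor most widely used to mark NK cells and related innate lymphocytes. It lies at chr7:4337724-4345164 on the plus strand (mm10). Ncr1 had 4.02 and 4.25 CPM in Mr1-/- PD fluid, 6.66 and 3.38 in Mr1-/- PBS, 5.33, 3.42 and 3.95 in Mr1+/+ PD fluid, and 4.75, 4.48 and 4.35 in Mr1+/+ PBS. These are 50 to 98 counts per library, and the highest and the lowest library were both Mr1-/- PBS. Groups next to each other in the order of means all overlapped, while Mr1-/- PD fluid lay below Mr1+/+ PBS without overlap. The log2 fold change of PD fluid over PBS was -0.082 in Mr1+/+ (SE 0.37, edgeR adjusted p = 0.896), with a 95% interval of -0.94 to 0.78.

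Klrk1 encodes NKG2D, the activating receptor for stress-induced ligands, and Klrd1 encodes CD94, which pairs with NKG2 chains to read the MHC molecule Qa-1. The genes lie close together on chromosome 6, Klrd1 at chr6:129591782-129598775 (plus strand) and Klrk1 at chr6:129610323-129623864 (minus strand). Klrk1 had 18.3 and 17.9 CPM in Mr1-/- PD fluid, 22.2 and 21 in Mr1-/- PBS, 18.7, 8.79 and 8.29 in Mr1+/+ PD fluid, and 13.4, 17.3 and 15.5 in Mr1+/+ PBS. Klrd1 had 18.3 and 18.8 CPM in Mr1-/- PD fluid, 28.7 and 16.4 in Mr1-/- PBS, 15.9, 7.58 and 7.78 in Mr1+/+ PD fluid, and 13.2, 15.6 and 13.2 in Mr1+/+ PBS. For both genes the Mr1-/- PBS mean was highest and the Mr1+/+ PD fluid mean lowest, replicate 1 of Mr1+/+ PD fluid lay far above replicates 2 and 3, and the Mr1-/- PBS samples lay above both Mr1+/+ PBS samples.

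The order of group means for Klrk1 was 21.6 ± 0.847 CPM in Mr1-/- PBS (SD, n = 2), 18.1 CPM in the single Mr1-/- PD fluid sample, 15.5 ± 0.0756 CPM in Mr1+/+ PBS (SD, n = 2) and 11.9 ± 5.88 CPM in Mr1+/+ PD fluid (SD, n = 3). Only the last neighbours in that order, Mr1+/+ PBS and Mr1+/+ PD fluid, overlapped. Klrd1 followed the same order at 22.6 ± 8.67, 18.5, 13.8 ± 0.867 and 10.4 ± 4.77 CPM, and there the Mr1-/- PD fluid sample and Mr1+/+ PBS were the only neighbours that did not overlap. The log2 fold changes of Mr1-/- over Mr1+/+ for Klrk1 were 0.48 under PBS (SE 0.38, edgeR adjusted p = 0.675) and 0.60 under PD fluid (SE 0.42, adjusted p = 0.479). Those of Klrd1 were 0.71 (SE 0.42, 95% interval -0.26 to 1.67, adjusted p = 0.605) and 0.83 (SE 0.46, 95% interval -0.24 to 1.89, adjusted p = 0.367). Neither gene passed the test, and both intervals of Klrd1 reach past a 3-fold excess in Mr1-/-.

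Eomes and Tbx21 encode Eomesodermin and T-bet, the T-box factors that set the fate of NK cells and of effector and memory CD8 T cells. Eomes had 10.4 and 8.82 CPM in Mr1-/- PD fluid, 14.5 and 12 in Mr1-/- PBS, 10.6, 6.91 and 7.06 in Mr1+/+ PD fluid, and 17.5, 17 and 8.35 in Mr1+/+ PBS. It was lower under PD fluid than under PBS in every library of each genotype except Mr1+/+ PBS replicate 3, which lay within the Mr1+/+ PD fluid range. The log2 fold change of PD fluid over PBS was -0.65 in Mr1+/+ (SE 0.34, edgeR adjusted p = 0.209) and -0.46 in Mr1-/- (SE 0.46, adjusted p = 1). Eomes (chr9:118478212-118486132, plus strand) overlaps the antisense gene Gm33460, which has no row of its own here, and no strand-marking step is named, so reads of the pair cannot be told apart.

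Tbx21 (chr11:97098071-97115331, minus strand) had 9.35 and 8.89 CPM in Mr1-/- PD fluid, 9.45 and 11.8 in Mr1-/- PBS, 9.8, 11.6 and 15 in Mr1+/+ PD fluid, and 17.7, 15.9 and 7.44 in Mr1+/+ PBS. Both extremes of the 10 libraries were Mr1+/+ PBS, and the 2 Mr1+/+ groups had the same mean, 12.1 CPM. Its log2 fold change in Mr1+/+ was -0.005 (SE 0.35, 95% interval -0.81 to 0.80, edgeR adjusted p = 0.994). Eomes and Tbx21 thus had different values in the same libraries of Mr1+/+ PD fluid: Eomes was highest in replicate 1, and Tbx21 in replicate 3.

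Gzmb encodes granzyme B, the protease that cuts after aspartate and activates caspases, and it varied more than any other of the 10 genes. Gzmb (chr14:56258838-56262260, minus strand) had 2.48 and 3.67 CPM in Mr1-/- PD fluid, 2.99 and 5.28 in Mr1-/- PBS, 4.28, 4.29 and 3.3 in Mr1+/+ PD fluid, and 13.4, 16 and 4.56 in Mr1+/+ PBS. The 2 high libraries are the near-identical pair counted as 1 sample, and all 3 Mr1+/+ PD fluid libraries lay below all 3 Mr1+/+ PBS libraries. The means were 3.96 ± 0.566 CPM in Mr1+/+ PD fluid (SD, n = 3) and 9.65 ± 7.19 CPM in Mr1+/+ PBS (SD, n = 2), a log2 fold change of -1.29 (SE 0.48, 95% interval -2.40 to -0.18). The edgeR p was 0.0276 and its adjusted p 0.103, so Gzmb did not pass. Gzmb was also the gene with the largest genotype difference under PBS, 4.13 ± 1.62 CPM in Mr1-/- and 9.65 ± 7.19 CPM in Mr1+/+ (SD, n = 2 each), a log2 fold change of -1.23 (SE 0.54, edgeR adjusted p = 0.566). Both differences use the same Mr1+/+ PBS libraries, and in both the Mr1+/+ PBS replicate 3 value, 4.56 CPM, lay close to or within the other group.

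Gzma encodes granzyme A, a tryptase, and was the only gene of the 10 with a higher fitted value after PD fluid in Mr1+/+. Gzma (chr13:113093825-113100981, minus strand) had 4.89 and 5.35 CPM in Mr1-/- PD fluid, 4.22 and 5.55 in Mr1-/- PBS, 8.68, 5.84 and 5.44 in Mr1+/+ PD fluid, and 5.44, 4.66 and 4 in Mr1+/+ PBS. Replicate 1 of Mr1+/+ PD fluid was the highest library, and replicate 3 of that group equalled replicate 1 of Mr1+/+ PBS to 3 digits. The log2 fold change was 0.55 (SE 0.32, 95% interval -0.18 to 1.29, edgeR adjusted p = 0.257) in Mr1+/+ and 0.067 (SE 0.42, adjusted p = 1) in Mr1-/-. Gzma rested on 57 to 140 counts per library and Gzmb on 40 to 264.

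Prf1 encodes perforin. Prf1 (chr10:61297833-61304680, plus strand) had 17.1 and 16.7 CPM in Mr1-/- PD fluid, 17.3 and 20.4 in Mr1-/- PBS, 16.3, 16.5 and 16.1 in Mr1+/+ PD fluid, and 26.2, 29 and 13.3 in Mr1+/+ PBS. The 3 Mr1+/+ PD fluid libraries lay close together, and the Mr1+/+ PBS libraries lay on both sides of them. The log2 fold change was -0.33 (SE 0.28, edgeR adjusted p = 0.429) in Mr1+/+ and -0.15 (SE 0.38, adjusted p = 1) in Mr1-/-.

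Nkg7 encodes a granule membrane protein that cytotoxic cells need for efficient degranulation. Nkg7 (chr7:43437073-43438249, plus strand) had 19.3 and 22 CPM in Mr1-/- PD fluid, 24.8 and 28.3 in Mr1-/- PBS, 25.9, 19 and 23.3 in Mr1+/+ PD fluid, and 39.3, 33.5 and 20.7 in Mr1+/+ PBS. In Mr1-/-, both PD fluid libraries lay below both PBS libraries, while in Mr1+/+ the fluids overlapped through PBS replicate 3. The log2 fold changes were close in size, -0.37 in Mr1-/- (SE 0.34, edgeR adjusted p = 1) and -0.33 in Mr1+/+ (SE 0.25, adjusted p = 0.379).

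The stretches upstream of Gzmb, Prf1, Eomes, Gzma and Klrk1 are shown because Gzmb, Prf1, Eomes and Klrk1 passed the test of PD fluid in Mr1+/+ when 1 library was left out, and Gzma alone had a positive fitted value there. Each is the 250 bases before the RefSeq start on the gene's own strand (RefSeq, GRCm38.p6, the assembly that mm10 names), 5′ to 3′. RefSeq promoters were found for 8 of the 10 genes, all except Klrd1 and Ccl5. Capitals mark matches on either strand to AGGTGT (T-box), TGTGGT (RUNX), AGGAAG (ETS), TTCNNNGAA (STAT) or TGANTCA (AP-1), and no 2 matches overlap in these stretches. The Eomes stretch has no match to any of the 5 motifs and so no capitals.
Gzmb, chr14:56262335-56262584, minus strand: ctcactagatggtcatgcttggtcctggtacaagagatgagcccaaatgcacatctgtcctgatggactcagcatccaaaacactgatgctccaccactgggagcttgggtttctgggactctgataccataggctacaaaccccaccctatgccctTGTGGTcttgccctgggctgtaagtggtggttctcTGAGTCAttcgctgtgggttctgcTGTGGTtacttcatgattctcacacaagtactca
Prf1, chr10:61297586-61297835, plus strand: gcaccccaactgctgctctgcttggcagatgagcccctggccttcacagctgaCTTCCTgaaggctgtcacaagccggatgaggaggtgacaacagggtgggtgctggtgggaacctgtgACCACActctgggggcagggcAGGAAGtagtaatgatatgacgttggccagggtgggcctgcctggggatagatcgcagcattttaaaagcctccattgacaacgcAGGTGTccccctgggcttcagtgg
Eomes, chr9:118477939-118478188, plus strand: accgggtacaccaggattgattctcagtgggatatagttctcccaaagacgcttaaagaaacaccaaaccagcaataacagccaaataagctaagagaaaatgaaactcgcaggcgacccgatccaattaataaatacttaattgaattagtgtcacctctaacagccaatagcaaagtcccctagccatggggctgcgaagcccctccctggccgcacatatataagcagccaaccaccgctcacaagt
Gzma, chr13:113100982-113101231, minus strand: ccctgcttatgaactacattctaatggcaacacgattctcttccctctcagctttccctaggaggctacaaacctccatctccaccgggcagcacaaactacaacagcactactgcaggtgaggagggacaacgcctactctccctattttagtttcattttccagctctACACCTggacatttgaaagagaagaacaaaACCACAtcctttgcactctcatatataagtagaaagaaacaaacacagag
Klrk1, chr6:129623865-129624114, minus strand: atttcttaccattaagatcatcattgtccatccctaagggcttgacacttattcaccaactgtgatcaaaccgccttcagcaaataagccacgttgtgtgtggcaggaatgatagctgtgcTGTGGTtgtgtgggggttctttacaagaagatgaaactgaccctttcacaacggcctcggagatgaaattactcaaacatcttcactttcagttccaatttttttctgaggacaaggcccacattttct

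The letters TGTGGT or their reverse complement were in 4 of the 5 stretches shown, all except Eomes, and in 6 of the 8 promoters (Ncr1, Klrk1, Gzma, Gzmb, Prf1 and Nkg7), while 14.2% of 27025 mouse promoters of the same length hold them. AGGTGT was in 3 of 8 (Gzma, Prf1 and Nkg7), against 12% of all promoters, and AGGAAG in 3 of 8 (Tbx21, Prf1 and Nkg7), against 29.2%. TGANTCA was in Gzmb alone, 58 bases before the start, with 6.87% of all promoters holding it, and TTCNNNGAA in Nkg7 alone, against 7.18%. Gzmb is the only one of the 4 granule genes with no AGGTGT match in this window, but the windows lie differently to the GENCODE genes. The Gzmb window stops at 56262335, short of the GENCODE gene at 56262260, and the bases between were not scanned. The Nkg7 window runs to 43437137, past the GENCODE start at 43437073. The Nkg7 AGGTGT match, 14 bases before the RefSeq start, thus lies inside the GENCODE gene. A match describes letters only, and the share of members with one was not tested.

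Ccl5 encodes the chemokine RANTES, which cytotoxic lymphocytes store and release and which draws in other leukocytes. Ccl5 (chr11:83525778-83530518, minus strand) had 35.8 and 38.1 CPM in Mr1-/- PD fluid, 78.6 and 38.6 in Mr1-/- PBS, 50.3, 37.6 and 48.1 in Mr1+/+ PD fluid, and 75.2, 64 and 48 in Mr1+/+ PBS. The Mr1-/- PBS libraries differed from each other widely, one of them being the highest of the 10 libraries, and the lower of them was close to the Mr1-/- PD fluid values. The log2 fold change of PD fluid over PBS was -0.66 in Mr1-/- (SE 0.43, 95% interval -1.68 to 0.35, edgeR adjusted p = 1) and -0.37 in Mr1+/+ (SE 0.31, adjusted p = 0.427).

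Taken over the 10 genes, PD fluid in Mr1+/+ gave 0 calls at an edgeR adjusted p under 0.05, beside 14.9% of all tested genes called (8.49% higher and 6.37% lower). Gzmb alone had an unadjusted p under 0.05, a level that 34.1% of all genes reached, and DESeq2 also called 0 (24.6% of all genes) and had 1 at that level. Fitted values were negative for 9 genes and positive for Gzma, with a median log2 fold change of -0.35, against -0.057 over all tested genes. Leaving out PD fluid replicate 2 moved that median of the 10 to -0.20, and leaving out PBS replicate 3 moved it to -0.54. Samples of the fluids did not overlap for 1 gene higher after PD fluid, Gzma (25% of all genes), and 1 lower, Gzmb (25.6% of all genes), which is no more than the background.

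**Figure D2:**
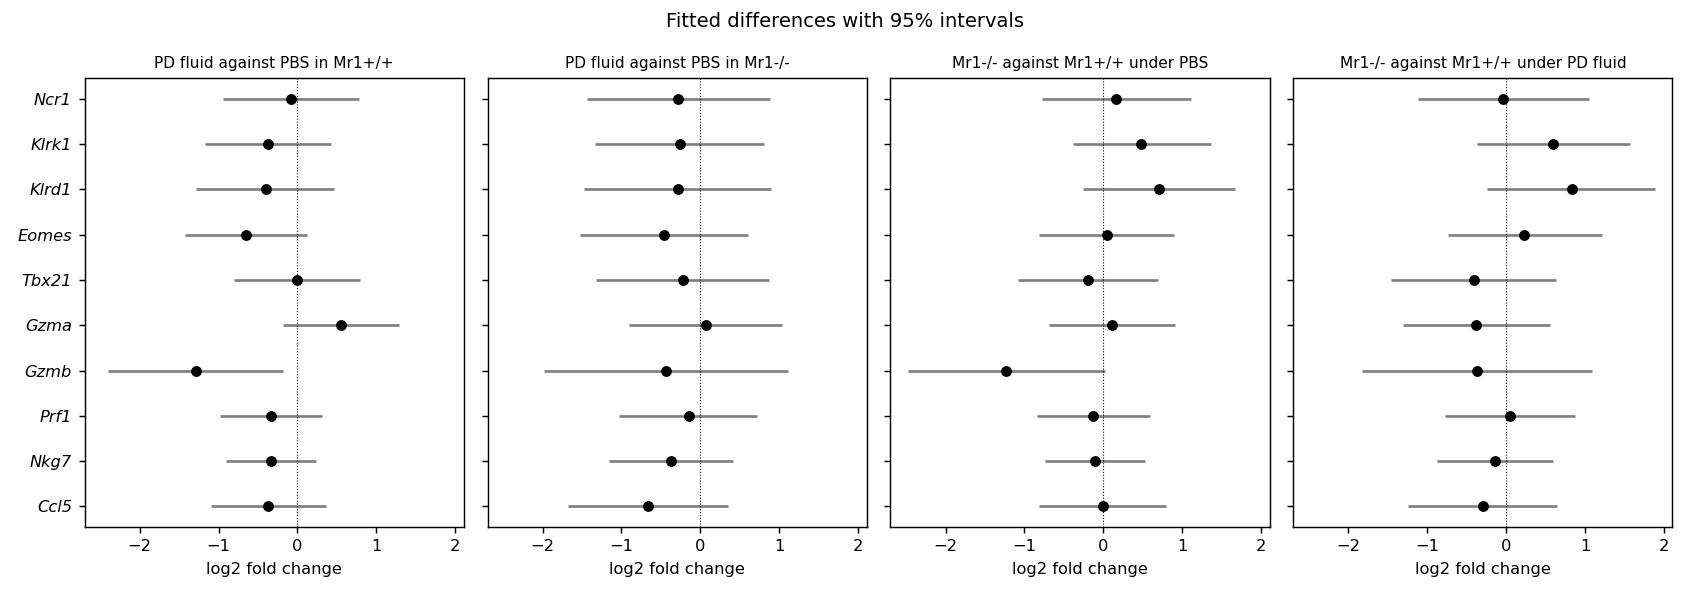
Fitted log2 fold change (x axis) of each of the 10 genes (rows) with its 95% interval (line), in 4 panels: PD fluid against PBS in Mr1+/+ and in Mr1-/-, and Mr1-/- against Mr1+/+ under PBS and under PD fluid. Every interval spans 0 except that of Gzmb for PD fluid in Mr1+/+, which runs from -2.40 to -0.18.

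The count of 0 in Mr1+/+ depended on single libraries. When Mr1+/+ PBS replicate 3, which held the intestinal and pancreatic transcripts, was left out, 3 of the 10 genes were called lower after PD fluid, beside 18.2% of all genes: Gzmb (log2 fold change -1.89, SE 0.359, edgeR adjusted p = 0.0123), Eomes (-1.07, SE 0.295, adjusted p = 0.0378) and Prf1 (-0.76, SE 0.203, adjusted p = 0.0352). In that fit the Mr1+/+ PBS group is the near-identical pair alone, 1 sample, assumed to vary like the others. The 18.2% takes both directions together, so it is not the share of all genes called lower. Without Mr1+/+ PD fluid replicate 1, Klrk1 was called lower (-0.86, SE 0.187, edgeR adjusted p = 0.0303). Of 15397 genes tested there, 1352 were called higher and 799 lower, 14% in both directions together. Without Mr1+/+ PBS replicate 1 or 2 no gene of the 10 was called, beside 15.3% and 14.3% of all genes. The 4 fits without a Mr1-/- library also called 0 of the 10, beside 13.3% to 14.8% of all genes, and so did those without Mr1+/+ PD fluid replicate 2 or 3. The last pair called only 2.21% and 0% of all genes. With all 10 libraries as separate samples, 37.5% of all genes were called, and of the 10 genes Eomes (-0.80, adjusted p = 0.0478) and Gzmb (-1.51, adjusted p = 0.0192). That fit counts the near-identical Mr1+/+ PBS pair, which holds the highest Eomes and Gzmb values, as separate samples.

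**Figure D3:**
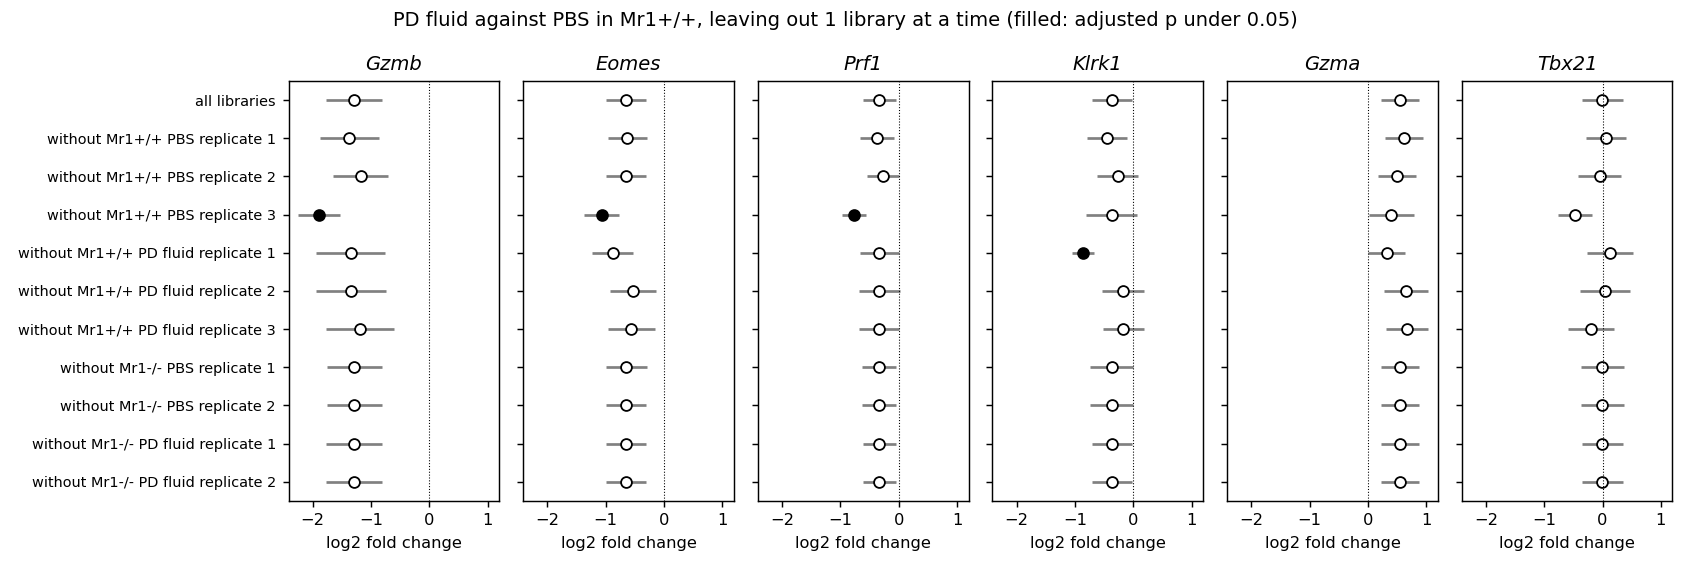
Log2 fold change of PD fluid over PBS in Mr1+/+ (x axis) with ± 1 SE (line) for 6 of the genes, with all libraries and leaving out each library in turn (rows); filled points have an edgeR adjusted p under 0.05. Gzmb, Eomes and Prf1 are filled only without Mr1+/+ PBS replicate 3, Klrk1 only without Mr1+/+ PD fluid replicate 1, and Gzma is above 0 in each fit shown.

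In Mr1-/-, edgeR called 0 of the 10 genes and 0% of all genes after PD fluid, and DESeq2 called 0 of the 10 (0.0195% of all genes). At an unadjusted p under 0.05 edgeR had none of the 10 and 1.5% of all genes. Fitted values were again negative for 9 genes and positive for Gzma, with a median of -0.28, against -0.015 over all genes. The single PD fluid sample lay below both PBS samples for 6 genes, Klrk1, Eomes, Tbx21, Prf1, Nkg7 and Ccl5 (27.9% of all genes), and above both for none (28.7% of all genes). Fitted values ran from -0.66 for Ccl5 to 0.067 for Gzma, and the intervals of all 10 spanned 0.

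Between genotypes under PBS, 0 of the 10 genes and 0.013% of all genes (0.0065% higher and 0.0065% lower) were called by edgeR. None of the 10, and 8.64% of all genes, had an unadjusted p under 0.05 in edgeR, and DESeq2 called none (1.37% of all genes) and had 1 at that level. The median log2 fold change of Mr1-/- over Mr1+/+ was 0.019, against -0.016 over all genes, with 5 positive and 5 negative. Without Mr1+/+ PBS replicate 3 it was -0.31, against 0.028 over all genes, with 2 of the 10 at an unadjusted p under 0.05 and none called. Samples did not overlap for Klrk1 and Klrd1, both higher in Mr1-/- (2 of 10, with 20.5% of all genes), and for no gene in the other direction (18.1% of all genes).

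Under PD fluid, 0 of the 10 genes and 0.013% of all genes (0.0065% higher and 0.0065% lower) were called between genotypes by edgeR, and DESeq2 also called 0 (5.68% of all genes), with none of the 10 at an unadjusted p under 0.05 in either, against 19.1% of all genes in edgeR. The median was -0.089, against 0.00 over all genes. The Mr1-/- sample lay above the 3 Mr1+/+ samples for Klrd1 and Prf1 (36% of all genes) and below them for Tbx21, Gzma, Gzmb and Ccl5 (33.9% of all genes), shares near the background. For Prf1 this is 16.9 CPM in Mr1-/- and 16.1 to 16.5 CPM in Mr1+/+.

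The difference between the PD fluid effects in Mr1-/- and in Mr1+/+ was called for 0 of the 10 genes and 0% of all genes by edgeR, and for 0 of the 10 by DESeq2 (2.73% of all genes). No member, and 13.2% of all genes, had an unadjusted p under 0.05. The largest interaction was that of Gzmb, 0.86 on the log2 scale (SE 0.81, 95% interval -1.01 to 2.73, edgeR adjusted p = 0.663), and the next Gzma, -0.49 (SE 0.53, adjusted p = 0.71). The 95% interval of each of the 10 genes reached past a 2-fold difference in at least 1 direction.

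The same few samples carried the extremes of most genes. Over the 8 samples, the merged Mr1+/+ PBS replicates 1 and 2 were highest for Eomes, Tbx21, Gzmb, Prf1 and Nkg7, and Mr1-/- PBS replicate 1 for Ncr1, Klrk1, Klrd1 and Ccl5. Mr1+/+ PD fluid replicate 1 was highest for Gzma. The lowest sample was Mr1+/+ PBS replicate 3 for Tbx21, Gzma and Prf1, and Mr1+/+ PD fluid replicate 2 for Klrd1, Eomes and Nkg7. The highest sample was 4.92 times the lowest for Gzmb and 3.79 times for Klrd1, and 1.92 to 2.68 times for the other 8 genes.

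Eomes followed the rest of the group most closely: its log2 CPM correlated with the mean z score of the other 9 genes at Pearson r = 0.94 over the 8 samples. Nkg7 followed at r = 0.88 and Prf1 at 0.72, while Tbx21 was at 0.24 and Gzma at -0.07. The genes outside the 10 whose log2 CPM was most like the mean z score of the 10 were Pus7l (r = 0.95), Prkch and Hp1bp3 (both 0.94), and Terf2 and Lsp1 (both 0.92), each over 8 samples. These are descriptions of 8 samples that share depth and tissue makeup, and a search over all genes finds high values.

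Levels of T cell and B cell transcripts also differed between libraries. Summed over 15 T cell markers, the level was 1646 and 1624 CPM in Mr1-/- PD fluid, 1752 and 1834 in Mr1-/- PBS, 1383, 996 and 982 in Mr1+/+ PD fluid, and 2256, 2285 and 1474 in Mr1+/+ PBS. The 10 cytotoxic genes summed to 140 and 145 CPM in Mr1-/- PD fluid, 209 and 163 in Mr1-/- PBS, 166, 122 and 138 in Mr1+/+ PD fluid, and 226, 217 and 139 in Mr1+/+ PBS. Both sums were higher in Mr1+/+ PBS replicates 1 and 2 than in replicate 3, and in Mr1+/+ PD fluid replicate 1 than in replicates 2 and 3. Within Mr1-/- PBS they went opposite ways, the T cell sum being higher and the cytotoxic sum lower in replicate 2. The largest fall was that of Ccl5, from 78.6 CPM in replicate 1 to 38.6 CPM in replicate 2. Ncr1, Klrk1, Klrd1 and Eomes were also lower in replicate 2, and Tbx21, Gzma, Gzmb, Prf1 and Nkg7 were higher. Summed B cell markers were at 2802 and 2807 CPM in Mr1-/- PD fluid, 2700 and 2613 in Mr1-/- PBS, 1471, 1367 and 1350 in Mr1+/+ PD fluid, and 3709, 3659 and 2329 in Mr1+/+ PBS. They were thus slightly higher in Mr1-/- PD fluid than in Mr1-/- PBS, where the cytotoxic sum was lower. After PD fluid in Mr1+/+, none of the 15 T cell markers rose (median over the list -0.73). The 4 that fell, Cd6, Cd28 and Cd5 among them, stand beside 6.37% of all genes. That count was 6 without Mr1+/+ PD fluid replicate 1, beside 799 of 15397 genes lower. Without replicate 2 or 3 it was 0 (medians -0.64 and -0.61), beside 87 of 15374 and 0 of 15356 genes lower. Without Mr1+/+ PBS replicate 3, which leaves 1 sample in that group, the T cell median was -1.04. All 10 of 10 B cell markers fell (median -1.01), beside 6.37% of all genes. Without Mr1+/+ PD fluid replicate 2 this B cell count was 2 (median -0.99), beside 87 of 15374 genes lower. Without replicate 3 it was 0 (median -1.01), beside 0% of all genes. In the same comparison 8 of 10 adipocyte markers (median 1.70) and 4 of 6 endothelial markers (median 0.99) rose, beside 8.49% of all genes. Without Mr1+/+ PD fluid replicate 2 these counts were 5 and 1 (medians 1.79 and 0.86), beside 252 of 15374 genes higher. Without replicate 3 both were 0 (medians 1.58 and 0.97), beside 0% of all genes. Adipocyte markers summed to 16972 to 25106 CPM in Mr1+/+ PD fluid and 5663 to 7121 CPM in Mr1+/+ PBS. No defining T or B cell marker was at 0 in any library, and the part of lymphocyte or fat content in the values of the 10 genes was not tested.

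Set against the T cell receptor gene Cd3e, the picture for Gzma was different from that in CPM. Gzma had 71.8 and 73.1 counts per 1000 Cd3e counts in Mr1-/- PD fluid, 57.5 and 67.7 in Mr1-/- PBS, 150, 154 and 161 in Mr1+/+ PD fluid, and 57.5, 46.2 and 65.1 in Mr1+/+ PBS. The 3 Mr1+/+ PD fluid libraries lay close together and far above the other 7. Nkg7 was also highest there, at 446, 500 and 690 per 1000 Cd3e counts, against 283 to 415 in the other 7 libraries. However, 42% of all tested genes lay higher in Mr1+/+ PD fluid than in the 3 other groups on this scale, so 2 of the 10 is no more than the background. In CPM none of the 10 lay higher there, against 16.5% of all genes. Between genotypes, over both fluids, Gzmb was the 1 gene of the 10 whose libraries did not overlap on the Cd3e scale, lower in Mr1-/- (1.29% of all genes), and none was higher (0.851% of all genes). In CPM none of the 10 was lower without overlap, against 3.78% of all genes.

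**Figure D4:**
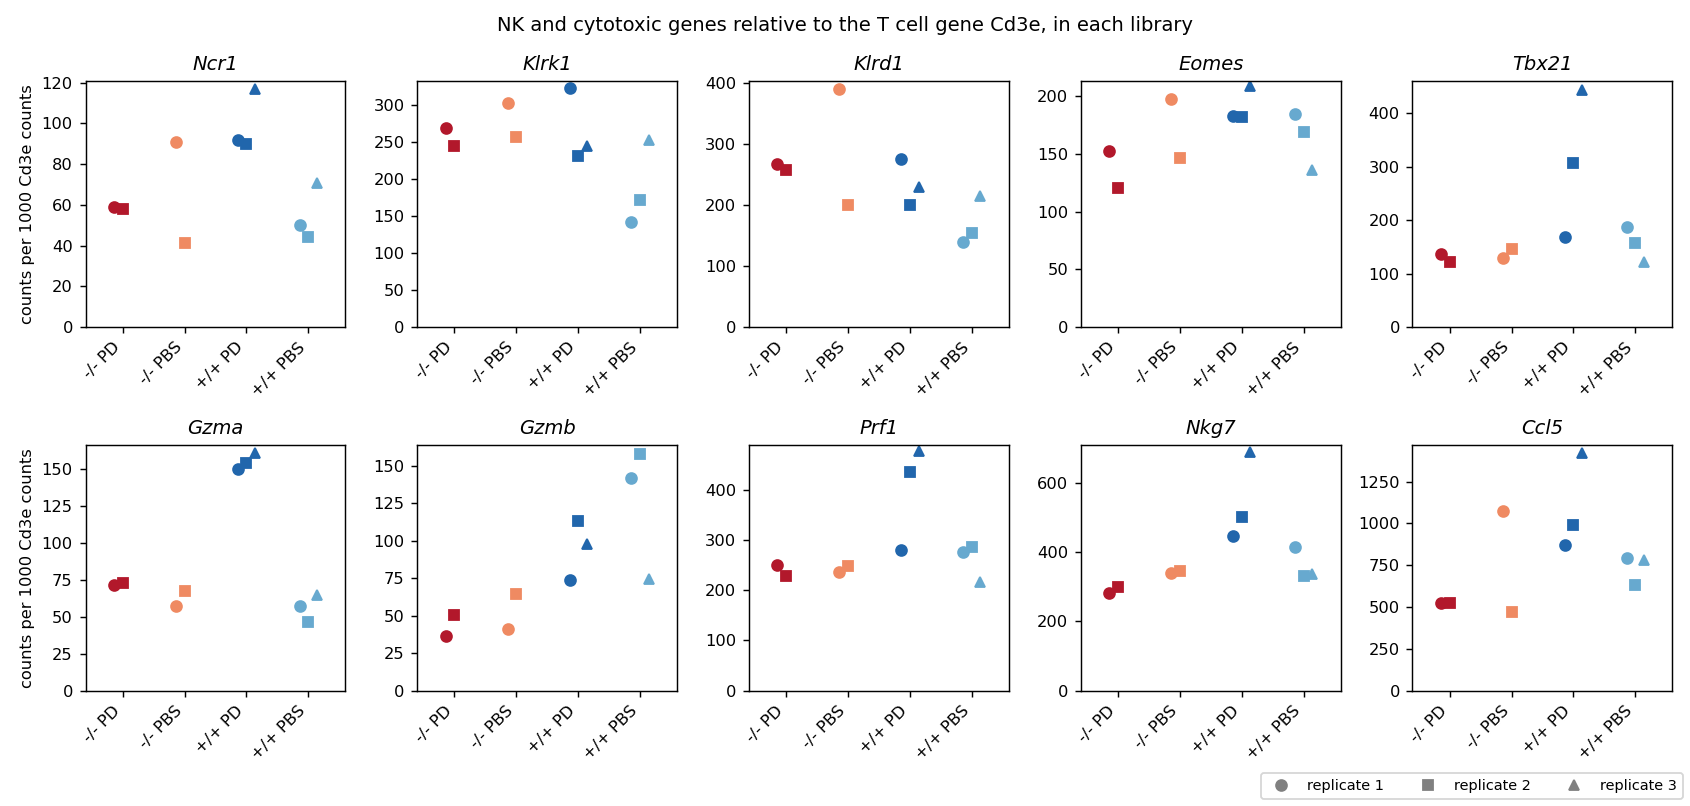
Counts of each of the 10 genes per 1000 counts of the T cell gene Cd3e (y axis, linear, from 0) in each library, by group (x axis); circles, squares and triangles are replicates 1, 2 and 3. Gzma is at 150 to 161 in Mr1+/+ PD fluid and at 46.2 to 73.1 in the other 7 libraries, and Gzmb is lower in all 4 Mr1-/- libraries, at 36.4 to 64.4, than in any Mr1+/+ library, at 73.7 to 158.

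With library sizes set to the summed T cell marker counts, the fitted values after PD fluid in Mr1+/+ were positive for 9 of the 10 genes, Gzmb being the exception at -0.43, and none was called, beside 22.3% of all genes. This scaling moved the median of all genes to 0.65, and the median of the 10 was 0.41. Gzma was at 1.26 (SE 0.485, edgeR adjusted p = 0.0584) on this scale. The scaling shifts all genes together, which turned the sign of Ncr1, Klrk1, Klrd1, Eomes, Tbx21, Prf1, Nkg7 and Ccl5, and the median of the 10 lay below that of all genes on both scales.

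Of 35 other NK receptors and surface molecules tested, 2 rose and 1 fell after PD fluid in Mr1+/+, with a median log2 fold change of -0.019. These shares are no higher than the 8.49% of all genes that rose and the 6.37% that fell. Those that rose were Fcgr3, the Fc receptor CD16, at 78 ± 11.4 CPM in PD fluid (SD, n = 3) and 33 ± 4.66 CPM in PBS (SD, n = 2), and its signalling chain Fcer1g, at 57.2 ± 14.5 and 28.7 ± 1.47 CPM (edgeR adjusted p = 0.0194 and 0.0246). Both are also expressed by macrophages, and 5 of 10 macrophage markers rose in the same comparison (median 0.91). Without Mr1+/+ PD fluid replicate 2 that count was 1 (median 0.95), beside 252 of 15374 genes higher. Without replicate 3 it was 0 (median 0.72), beside 0% of all genes. Macrophage markers summed to 2934 to 4019 CPM in PD fluid and 2302 to 2528 CPM in PBS. The part of macrophage content in the Fcgr3 and Fcer1g values was not tested. Slamf6, a receptor of NK, T and B cells, fell by 1.20 on the log2 scale (SE 0.25, edgeR adjusted p = 0.0226). Among the classical NK receptors of this list, Klrb1c (NK1.1) was at 2.19 to 5.1 CPM, Klrc1 at 1.9 to 3.44 CPM and Klra7, an inhibitory Ly49 receptor, at 1.01 to 3.2 CPM over the 10 libraries. Klra and Klrc genes are near-identical families, so their counts are uncertain.

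Among 20 other genes of granzymes and granule release, 14 were tested, and 1 rose and 1 fell after PD fluid in Mr1+/+, near the shares of all genes (8.49% and 6.37%). Unc13d, which primes granules for fusion, fell by 0.87 (SE 0.17, edgeR adjusted p = 0.0192), at 50.9 ± 5.96 CPM in PD fluid (SD, n = 3) and 92.9 ± 20.1 CPM in PBS (SD, n = 2). Lamp1, a lysosome membrane protein of most cells, rose by 0.70 (SE 0.16, adjusted p = 0.0277), at 702 ± 86.7 and 432 ± 6.99 CPM. Gzmd, Gzme, Gzmg and Gzmn had 0 counts in all 10 libraries. A count of 0 allows up to 3 counts, or 0.184 to 0.212 CPM in these libraries, for counting error only. Ifng, the cytokine these cells secrete, had at most 1 count in a library and was not tested.

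Of 15 other transcription factors of cytotoxic lymphocytes, 1 rose and 3 fell after PD fluid in Mr1+/+, beside 8.49% and 6.37% of all genes, with a median of -0.36 against -0.057 over all genes. Nfil3, which NK cell development requires, rose by 1.35 (SE 0.32, edgeR adjusted p = 0.0307), at 27.7 ± 9.75 CPM in PD fluid (SD, n = 3) and 10.9 ± 1.69 CPM in PBS (SD, n = 2). The lymphoid factors Ikzf3, Tox and Ets1, all also expressed by T or B cells, fell. Ikzf3 averaged 138 ± 35.8 CPM in PD fluid (SD, n = 3) and 378 ± 134 CPM in PBS (SD, n = 2), Tox 13.6 ± 2.9 and 27.3 ± 4.06 CPM, and Ets1 523 ± 71.2 and 943 ± 236 CPM (edgeR adjusted p = 0.0184, 0.0246 and 0.0281). In the IL-12, IL-15, IL-18 and IL-21 axis, the receptor gene Il21r fell by 0.65 (SE 0.17, adjusted p = 0.0379), and no other of 15 tested genes was called, beside 14.9% of all genes. That call was lost without Mr1+/+ PD fluid replicate 1, 2 or 3, beside 14%, 2.21% and 0% of all genes called. It was also lost without Mr1-/- PBS replicate 1 or 2, beside 13.3% and 13.6%. Without Mr1+/+ PBS replicate 3, which leaves 1 sample in that group, the list median was -0.58, against -0.44 with all libraries. Il15, the survival factor of NK cells, was at 5.69 to 11.1 CPM over the 10 libraries, and Il2rb, the receptor chain shared by IL-2 and IL-15, at 137 to 217 CPM.

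None of the 5 tested NKG2D ligands and adaptors was called, beside 14.9% of all genes. The nearest was Tyrobp, the DAP12 adaptor, at 42 ± 7.27 CPM in PD fluid (SD, n = 3) and 28.7 ± 1.08 CPM in PBS (SD, n = 2), with a log2 fold change of 0.55 (SE 0.18, edgeR adjusted p = 0.0725). No gene of these 5 lists was called in the other 4 comparisons. The list calls in Mr1+/+ were lost together with those of other genes when PD fluid libraries were left out. Without PD fluid replicate 3 none of them passed, beside 0% of all genes called. Without replicate 2 Ikzf3 alone did, beside 2.21% of all genes.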

How the data were processed

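Poly-A RNA of mouse peritoneum was reverse-transcribed with random primers, per the labels' protocols, which name no molecular identifiers and no strand-marking step. The authors deposited raw read counts, 1 row a gene, without scaling. Per the submitters' processing notes the genome build was mm10. Which aligner, counter and annotation were used is not given in the sources used here. Rows sharing a symbol were summed (21899 rows to 21877 symbols), and 97% of symbols matched GENCODE M21, which supplied positions and exon lengths.

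Near-identical libraries (chi-square per gene under 3) were summed, leaving 8 samples. Differences were tested with edgeR 4.0.16 in R 4.3.3: filterByExpr by group, TMM scaling, a robust quasi-likelihood fit on 4 group means with 4 residual degrees of freedom, and Benjamini-Hochberg adjustment over 15385 genes, called at an adjusted p under 0.05. CPM are counts divided by TMM-scaled library sizes. Alternatives were DESeq2 1.42.0, DESeq2's size factors in edgeR, no low-count filter, 10 separate libraries with and without a replicate block, fits with only the groups compared, leaving out each library, and library sizes set to T cell marker counts, the last chosen after seeing the data. The fit was tested on simulated data.

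Some list genes are not reported here. The 10 genes and the gene lists were chosen with earlier results of these data known. Named list genes are the called members with the smallest p, up to 4, or 2 where none was called. The genes most like the 10 are the 5 with the highest Pearson r among those with a mean of at least 5 CPM. Klrb1c, Klrc1, Klra7, Il15, Il2rb, Gzmk and genes with counts near 0 are outside that rule: their values had been seen when they were picked, as was so for the ratios to Cd3e.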

Additional observations from a re-analysis of the deposited data

How the results depend on the processing

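No member was called in the other 4 comparisons under any alternative. After PD fluid in Mr1+/+, 2 were called with 10 separate libraries, 2 with those libraries and a replicate block, and 0 to 3 when 1 library was left out. Same-numbered libraries correlated at -0.15 to 0.15 in their deviations from group means. Whether replicate numbers pair the samples cannot be decided from this. The near-identical Mr1-/- PD fluid libraries barely deviate from their mean, and replicate 3 largely sets the deviations of Mr1+/+ PBS replicates 1 and 2. With the block, Eomes (-0.76, adjusted p = 0.0222) and Gzmb (-1.36, adjusted p = 0.0112) were called, and 5537 genes in all (37.4%), against 5549 for the same 10 libraries without it. The 8 samples gave 2286, DESeq2 3780 and the fits that left out a library 0 to 2751. T cell marker scaling gave 3385 higher and 42 lower, against 1306 and 980. For genotype under PD fluid, 2 genes were called, against 3400 with 10 libraries, 2428 with the block, 874 with DESeq2, 561 with only the groups compared, 17 with T cell scaling, 7 without the filter and 0 to 33 leaving out a library. For genotype under PBS, 2 were called, against 50 with 10 libraries, 3 with the block, 211 with DESeq2, 18 with T cell scaling, 6 without the filter, 0 with only the groups compared and 1 to 3 leaving out a library. For PD fluid in Mr1-/-, 0 were called, against 2 with 10 libraries, 3 with DESeq2 and 0 to 1 leaving out a library. For the interaction, 0 were called, against 1490 with 10 libraries, 1915 with the block, 420 with DESeq2 and 0 to 1 leaving out a library.

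Of all alternative values for single members, 779 kept direction and side of the threshold, 8 passed it newly and 53 changed sign, none of them called. With T cell marker scaling, Ncr1 (0.60), Klrk1 (0.25), Klrd1 (0.24), Eomes (0.13), Tbx21 (0.86), Prf1 (0.49), Nkg7 (0.45) and Ccl5 (0.38) turned positive for PD fluid in Mr1+/+, where the scaling moved the median of all genes from -0.057 to 0.65. So did Ccl5 (0.06) for genotype under PBS, while Eomes (-0.30) and Prf1 (-0.53) under PD fluid and the interactions of Klrk1 (-0.38), Klrd1 (-0.40), Eomes (-0.46) and Prf1 (-0.51) turned negative. With 10 libraries, Eomes under PBS was -0.11 and the Nkg7 interaction 0.085. With the block these were -0.27 and 0.045, Gzma under PBS was -0.051 and Prf1 under PD fluid -0.13. Leaving out a library gave ranges that span 0 for Ncr1 (-0.28 to 0.067) and Tbx21 (-0.47 to 0.13) for PD fluid in Mr1+/+. In Mr1-/- this held for Ncr1 (-0.69 to 0.29), Klrd1 (-0.63 to 0.17), Gzma (-0.12 to 0.28) and Gzmb (-0.78 to 0.033). For genotype under PBS it held for Ncr1 (-0.41 to 0.57), Eomes (-0.38 to 0.17), Gzma (-0.11 to 0.29) and Ccl5 (-0.61 to 0.42), and under PD fluid for Ncr1 (-0.19 to 0.17). For the interaction it held for Ncr1 (-0.60 to 0.37), Klrk1 (-0.078 to 0.60), Klrd1 (-0.22 to 0.58), Tbx21 (-0.37 to 0.24), Nkg7 (-0.15 to 0.31) and Ccl5 (-0.71 to 0.31). The cause was not tested. Gzmb, Ncr1 and Gzma, with as few as 40, 50 and 57 counts in a library, had the fewest reads.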

Other observations

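Relative to Cd3e, Gzmb was the only one of the 10 genes whose libraries did not overlap between genotypes. It had 36.4 and 50.2 counts per 1000 Cd3e counts in Mr1-/- PD fluid and 40.8 and 64.4 in Mr1-/- PBS, against 73.7, 113 and 97.7 in Mr1+/+ PD fluid and 142, 158 and 74.3 in Mr1+/+ PBS. The lowest Mr1+/+ library was thus close to the highest Mr1-/- library. Of all tested genes, 1.29% lay lower and 0.851% higher in Mr1-/- on this scale without overlap, and the ratio was chosen after the values were seen. In CPM the genotypes overlap for Gzmb, at 2.48 to 5.28 CPM in Mr1-/- and 3.3 to 16 CPM in Mr1+/+.

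Gzmk, granzyme K, a granzyme of memory and innate-like T cells that is no member of the 10, showed the same split. It had 17.3 and 22.9 counts per 1000 Cd3e counts in Mr1-/- PD fluid and 2.78 and 22.3 in Mr1-/- PBS, against 42.7, 88.3 and 138 in Mr1+/+ PD fluid and 77.3, 88.2 and 27.4 in Mr1+/+ PBS. Its counts were 3 to 147 per library. In CPM it averaged 1.02 ± 1.15 in Mr1-/- PBS and 4.9 ± 4.55 in Mr1+/+ PBS (SD, n = 2 each), with a log2 fold change of -2.28 (SE 1.03, edgeR adjusted p = 0.571). Gzmk was not called in any of the 5 comparisons. Its lowest Mr1+/+ ratio, 27.4, was close to its highest Mr1-/- ratio, 22.9. It was picked after its values were seen, and Cd3e ratios of the other granule genes outside the 10 are not reported here.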
